A study of Homo sapiens with 24 samples.

Results

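The 10 genes described here switch off or restrain mitogen-activated protein kinase (MAPK) signalling: the dual-specificity phosphatases DUSP1, DUSP4, DUSP5, DUSP6, DUSP8, DUSP10, DUSP14 and DUSP16, and the Sprouty genes SPRY2 and SPRY4. They were chosen by name, as the rows of the deposited count table whose Ensembl identifiers carry these symbols, and all 10 were found among the 63299 genes listed. Of these, 8 passed the filter on low counts together with 20240 genes in all; DUSP4, with at most 13 reads in a library, and DUSP10, with at most 5, did not pass and are given as counts only. The 24 libraries of total RNA form 8 groups of 3: the human ovarian cancer cell line A2780, which is platinum-sensitive, and its isogenic platinum-resistant partner A2780cis, each left in standard medium (untreated) or exposed to 1 μM 5-FdU-ECyd (treated), and each harvested after 6 h or 12 h. 5-FdU-ECyd is a duplex-prodrug that joins the antimetabolites 2'-deoxy-5-fluorouridine and 3'-C-ethynylcytidine, which act on DNA and RNA synthesis. Each state is represented by only 1 cell line, and A2780cis cells, untreated controls included, came from cultures that received cisplatin at intervals to keep them resistant, so the lines differ in that exposure as well. The study calls the 3 libraries of a group biological replicates, while the labels do not say whether they came from separate cultures. A p-value therefore weighs a difference against the spread between libraries within groups, estimated over all 24 libraries. That spread may not be the one between separate cultures.

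Dual-specificity phosphatases remove phosphate from both the threonine and the tyrosine of the activation loop of a MAPK and so end its activity. DUSP1, DUSP4 and DUSP5 are nuclear enzymes whose genes are switched on within minutes to hours by growth factors and stress. DUSP6 is the cytoplasmic phosphatase of ERK, DUSP8, DUSP10 and DUSP16 act mainly on the stress kinases JNK and p38, and DUSP14 is a small enzyme without the kinase-binding domain of the others. SPRY2 and SPRY4 are not phosphatases: they bind signalling adaptors beneath receptor tyrosine kinases and hold back the route from RAS to ERK. DUSP6, SPRY2 and SPRY4 are widely read as transcripts that follow ERK activity and feed back on it.

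The phosphatases share a catalytic loop in which a cysteine carries the phosphate and an arginine holds it, and its coding bases show what unites the family. The 27 bases around this loop were read from GRCh38 along the GENCODE release 44 reference transcripts, 5′ to 3′ on the coding strand, with the cysteine and arginine codons in capitals. DUSP4 is not shown.
DUSP1: cacTGCcaggcaggcatttccCGGtca
DUSP5: cacTGTgaggctgggatctccCGTtca
DUSP6: catTGCttggctggcattagcCGCtca
DUSP8: cacTGTctggctggcatctccCGCtct
DUSP10: cacTGCcaggctggggtgtccCGCtcc
DUSP14: cacTGTgctgcaggggtgagcCGCtca
DUSP16: cacTGTttagctgggatctccCGCtcc
Between any 2 of these 7 windows, 17 to 23 of the 27 bases were identical, with a median of 20. The closest pair was DUSP8 and DUSP16 with 23 identical bases, and DUSP14 differed most from DUSP1 and DUSP8, with 17 each. Each window lies in 1 coding exon, the last of 4 in DUSP1 (chr5:172769071-172769097), the last of 3 in DUSP6 (chr12:89349500-89349526) and in DUSP14 (chr17:37512600-37512626), and exon 6 of 7 in DUSP8 (chr11:1557856-1557882) and DUSP16 (chr12:12480285-12480311). The cysteine is residue 258 of 367 in DUSP1, 293 of 381 in DUSP6, 246 of 625 in DUSP8 and 111 of 198 in DUSP14. SPRY2 (315 residues) and SPRY4 (299 residues) hold no such motif.

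The promoter windows of DUSP1 and DUSP8 are shown because they are the members whose windows hold the cyclic AMP response element (CRE, TGACGTCA, a palindrome). The sequences are the 250 bases before the RefSeq start of each gene, in GRCh38.p14, 5′ to 3′ on the gene's strand, with CRE letters in capitals. DUSP1 lies on the minus strand at chr5:172771196-172771445 and DUSP8 on the minus strand at chr11:1572272-1572521.
DUSP1: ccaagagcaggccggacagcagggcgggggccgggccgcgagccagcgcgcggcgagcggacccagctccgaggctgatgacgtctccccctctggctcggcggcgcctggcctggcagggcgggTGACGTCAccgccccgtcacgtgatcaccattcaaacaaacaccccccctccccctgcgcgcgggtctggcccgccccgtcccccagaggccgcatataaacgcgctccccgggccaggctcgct
DUSP8: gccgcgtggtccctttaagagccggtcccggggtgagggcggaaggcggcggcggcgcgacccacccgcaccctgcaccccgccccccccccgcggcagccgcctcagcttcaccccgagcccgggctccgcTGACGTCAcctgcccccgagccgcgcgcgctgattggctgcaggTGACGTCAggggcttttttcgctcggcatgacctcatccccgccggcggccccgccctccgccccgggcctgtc
The DUSP1 match begins 125 bases before the start, and the DUSP8 matches begin 118 and 74 bases before it. Among all 35116 promoter windows of this length in the table, 1.65% held a CRE. The table matched 8 of the 10 genes, with 11 windows in all (DUSP4 and DUSP5 are not in it), and 2 of these 11 windows, of 2 genes, held the element. Other motifs were searched on both strands. GGGCGG, the GC box, was found in 8 of the 11 windows, against 42.6% of all windows. The ETS motif CCGGAA was found in 1 window, against 14.5%. Likewise 1 window held the E-box letters CACGTG, against 6.34%. The TATA box TATAAA was found in 1 window as well, against 10.7%. TGANTCA (AP-1, in 6.57% of all windows), the CArG box (1.16%) and the p53 half-site (5.57%) had no match in the windows of these genes. No other motif searched overlapped a CRE match. These matches are a description of letters and were not tested against the expression values.

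Between 11077368 and 21901406 reads per library were counted. Levels are given in CPM (the reads of a gene relative to its library's total) after TMM scaling, as mean ± SD of 3 libraries, so they are shares of the RNA sequenced. In bulk RNA of this kind, fewer cells carrying a transcript and less transcript per cell cannot be told apart, and a change in total RNA per cell cannot be seen. Of 7 markers of ovarian epithelial tumours, PAX8, WT1, MUC16 and CDH1 had at most 2 counts in any library, and KRT8, KRT18 and EPCAM had group means between 0.188 and 26.5 CPM; the summed level of the list ran from 2.56 to 5.94 CPM in A2780 groups and from 28.2 to 31.7 CPM in A2780cis groups. Markers of leukocytes, T cells, endothelium and hepatocytes (PTPRC, CD3E, PECAM1, ALB) had at most 3 counts, and COL1A1 had group means of 0.413 to 14.7 CPM. The summed level of these 5 other markers was 8.46 CPM in untreated and 14.8 CPM in treated A2780 libraries of 12 h, and 1.46 and 2.76 CPM in those of A2780cis; their part in the results was not tested.

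Per kilobase of exon, DUSP6 was the most abundant of the 10 genes, with a mean level of 63.8 CPM per kb over all libraries. SPRY2 (42.8), SPRY4 (29.45) and DUSP14 (21.1 CPM per kb) followed, DUSP16 (6.28), DUSP1 (3.09) and DUSP5 (2.47 CPM per kb) were lower, and DUSP8 (0.185), DUSP10 (0.0257) and DUSP4 (0.0210 CPM per kb) were close to absent. DUSP6 and the Sproutys, the feedback genes of the ERK route, thus held most of the reads, while DUSP8, with the largest fitted log2 FC, held few.

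**Figure D1:**
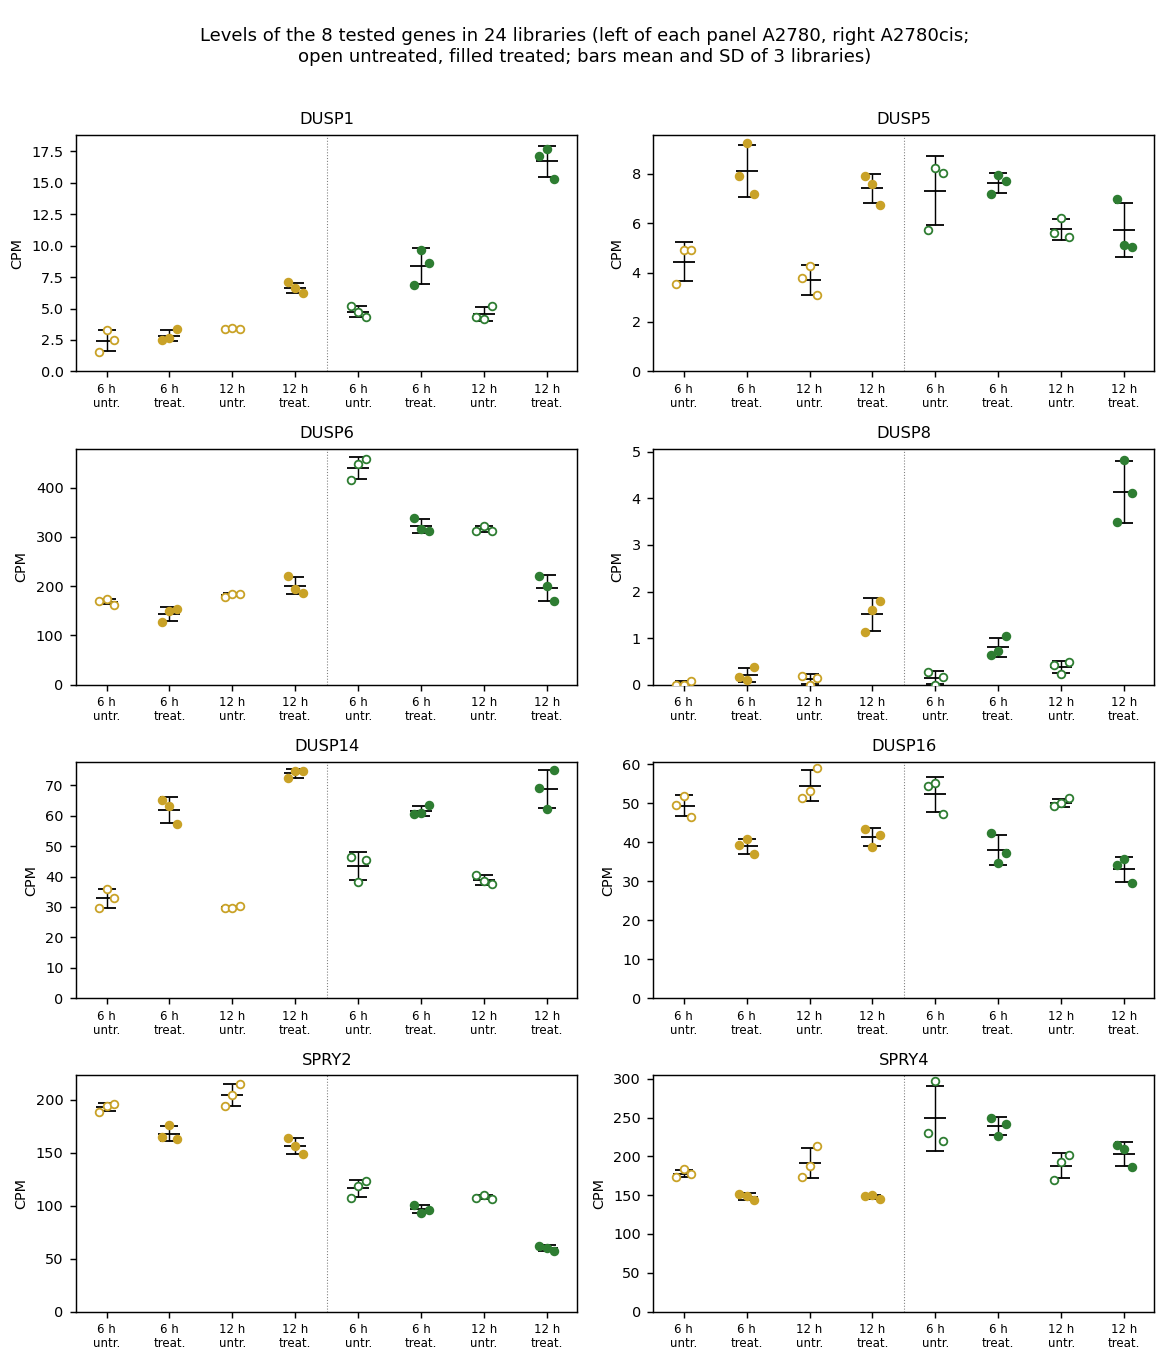
Levels in CPM (vertical axes, from 0) of the 8 tested genes in each of the 24 libraries, by group (horizontal axis: 6 h untreated, 6 h treated, 12 h untreated, 12 h treated, for A2780 at the left and A2780cis at the right). Open points are untreated and filled points treated libraries, and bars are the mean and SD of 3 libraries; DUSP1 reached 16.7 CPM only in treated A2780cis cells of 12 h, whereas SPRY2 was at its lowest there, at 59.7 CPM.

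After 12 h of treatment, the tested phosphatases and Sproutys moved in both directions in both lines. In A2780, 7 of the 8 tested genes passed the threshold of an adjusted p of 0.05 in the quasi-likelihood test of edgeR, adjusted by the method of Benjamini and Hochberg, against 54.8% of all genes tested: DUSP1, DUSP5, DUSP8 and DUSP14 rose and DUSP16, SPRY2 and SPRY4 fell. In A2780cis 6 of the 8 passed, against 59.9% of all genes: DUSP1, DUSP8 and DUSP14 rose and DUSP16, DUSP6 and SPRY2 fell. After 6 h, 5 passed in A2780 (29.4% of all genes) and 6 in A2780cis (30.7%). DUSP14 rose and DUSP16 and SPRY2 fell in each of these 4 comparisons. Treated and untreated libraries did not overlap for 7 of the 8 genes at 6 h and 8 at 12 h in A2780, against 41.6% and 64.0% of all genes, and for 6 at each time in A2780cis, against 43.2% and 59.6%. In A2780 at 6 h, DUSP8 lay apart only after scaling. Its lowest treated and highest untreated library held 1 read each (0.09255 and 0.09094 CPM). DUSP8 had at most 9 reads in an untreated library and passed the filter only through treated libraries. It is included in the calls of A2780 at 12 h and of A2780cis at both times. It is also included in all 4 counts of genes without overlap. Because the filter favoured this outcome, its part in these counts is no evidence of a response.

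**Figure D2:**
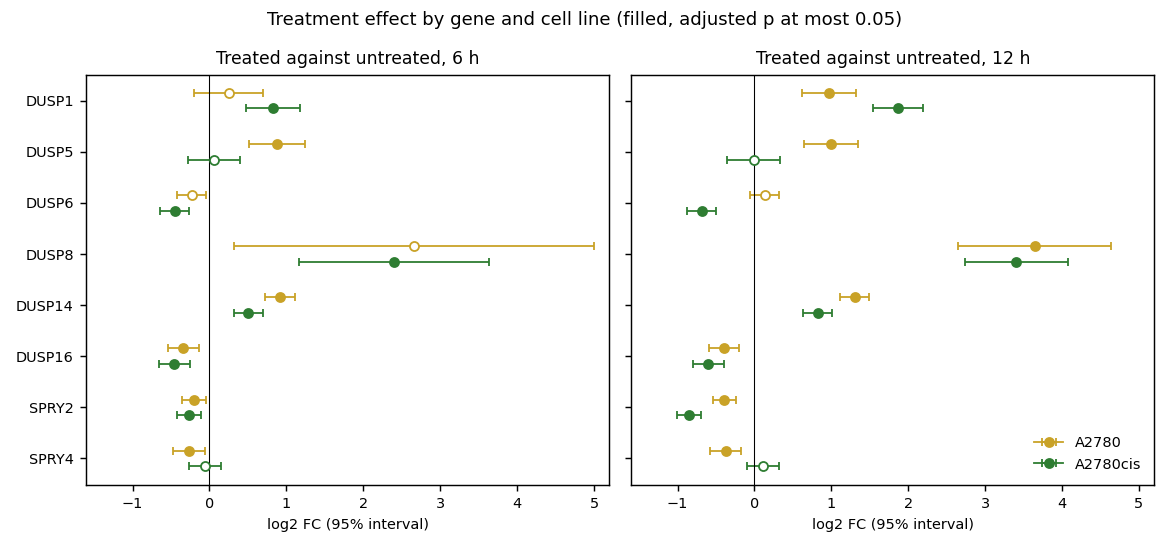
Treatment effect (log2 FC of treated against untreated, horizontal axis) with its 95% interval for the 8 tested genes (vertical axis) at 6 h (left) and 12 h (right), in A2780 (ochre) and A2780cis (green); filled points passed the threshold. DUSP8 lay farthest to the right at 12 h (3.64 and 3.40), and at 12 h the intervals of the 2 lines overlapped for DUSP8 and DUSP16 and lay apart for the other 6 genes.

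DUSP1 (ENSG00000120129.5, chr5:172768096-172771195), the first inducible MAPK phosphatase, rose most strongly in A2780cis. At 12 h the untreated A2780cis libraries stood at 4.33, 4.15 and 5.24 CPM and the treated ones at 17.2, 17.7 and 15.3 CPM. In A2780 the untreated libraries stood at 3.37, 3.42 and 3.34 CPM and the treated ones at 7.08, 6.60 and 6.27 CPM. Every treated library was above every untreated one in both lines. The log2 FC was 1.87 in A2780cis (SE 0.16, adjusted p = 2.04e-10, edgeR) and 0.97 in A2780 (SE 0.17, adjusted p = 3.13e-05), and the effect was larger in A2780cis by 0.89 (95% interval 0.41 to 1.37, adjusted p of the difference 0.00715, edgeR). At 6 h DUSP1 had already risen in A2780cis, from 5.18, 4.71 and 4.34 CPM to 6.86, 9.64 and 8.62 CPM (log2 FC = 0.83, adjusted p = 0.000713, edgeR). In A2780 the 6 h groups overlapped, with 1.58, 3.31 and 2.46 CPM untreated and 2.47, 2.68 and 3.33 CPM treated (log2 FC = 0.25, adjusted p = 0.42, edgeR). Between 6 h and 12 h the effect in A2780cis grew by 1.04 on the log2 scale (95% interval 0.56 to 1.52, adjusted p = 0.00236, edgeR); the corresponding difference in A2780 was 0.72 (0.15 to 1.30, adjusted p = 0.0611). It passed the threshold in 3 of 8 other settings, namely the size factors of DESeq2 (adjusted p = 0.0496), library size alone (0.0255) and no lncRNA and rRNA genes (0.0398). It also passed in 2 of 12 fits that left out 1 library, those without untreated replicate 1 of 6 h (0.98, adjusted p = 0.0127, edgeR) and without treated replicate 3 of 6 h (0.86, adjusted p = 0.0397), and it was lowest without untreated replicate 2 of 6 h (0.45, adjusted p = 0.298).

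DUSP5 (ENSG00000138166.5, chr10:110497907-110511533), a nuclear phosphatase specific for ERK, rose in A2780 and not in A2780cis. In A2780 its untreated libraries of 6 h were at 3.52, 4.92 and 4.91 CPM and the treated ones at 7.93, 9.26 and 7.19 CPM. At 12 h the values were 3.76, 4.29 and 3.08 CPM untreated and 7.92, 7.57 and 6.75 CPM treated, so that the groups did not overlap at either time. The log2 FC was 0.88 at 6 h (adjusted p = 0.000596, edgeR) and 1.00 at 12 h (adjusted p = 1.91e-05, edgeR). In A2780cis the untreated libraries of 12 h (5.59, 6.23 and 5.45 CPM) overlapped the treated ones (6.99, 5.11 and 5.05 CPM), with a log2 FC of -0.01 and a 95% interval from -0.35 to 0.33. At 6 h the A2780cis values were 5.73, 8.22 and 8.02 CPM untreated and 7.18, 7.96 and 7.73 CPM treated (log2 FC = 0.06, adjusted p = 0.835, edgeR). The effect of 12 h was smaller in A2780cis than in A2780 by 1.01 (log2 difference -1.01, 95% interval -1.50 to -0.52, adjusted p = 0.00318, edgeR). Untreated A2780cis cells held more DUSP5 than untreated A2780 cells (log2 FC = 0.73 at 6 h, adjusted p = 0.00147, and 0.64 at 12 h, adjusted p = 0.00286, edgeR). Treated A2780 libraries overlapped untreated A2780cis libraries of the same time at 6 h (8.12 ± 1.05 against 7.32 ± 1.38 CPM), whereas at 12 h each was above all of them.

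DUSP4 (ENSG00000120875.8, chr8:29333064-29350684), the close relative of DUSP1, was at the edge of detection. In A2780 it had 1 read in all 12 libraries together, in an untreated library of 12 h. A count of 0 is compatible with an expected count of up to about 3 in a library. In A2780cis the untreated libraries had 1, 2 and 2 reads at 6 h and 0, 1 and 5 reads at 12 h, and the treated ones had 3, 2 and 12 reads at 6 h and 13, 13 and 5 reads at 12 h. The highest untreated count of 12 h equalled the lowest treated one. Scaled for library size with TMM, the ratio of the summed reads was 6.01 at 12 h (31 against 6 reads, exact 95% interval 2.47 to 17.6) and 2.36 at 6 h (17 against 5 reads, 0.837 to 8.19). These intervals cover counting error only and are no test between the groups.

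DUSP6 (ENSG00000139318.7, chr12:89347235-89352501), the cytoplasmic ERK phosphatase, was higher in untreated A2780cis than in untreated A2780 cells, and the treated groups of 12 h overlapped. At 6 h the untreated A2780cis libraries had 415, 447.9 and 457.6 CPM, against 169.3, 174.8 and 162.8 CPM in A2780 (log2 FC = 1.38, SE 0.09, adjusted p = 1.95e-12, edgeR). By 12 h the untreated A2780cis libraries were at 311.9, 323.2 and 312.7 CPM and the A2780 ones at 178.9, 184.8 and 184.8 CPM (log2 FC = 0.79, adjusted p = 6.06e-08, edgeR). Untreated A2780cis cells thus lowered DUSP6 between 6 h and 12 h without the agent (log2 FC = -0.48, adjusted p = 0.00036, edgeR). Treatment lowered it further in A2780cis, to 339.2, 315.3 and 311.8 CPM at 6 h (log2 FC = -0.45, adjusted p = 0.00059) and to 220.3, 199.6 and 169.0 CPM at 12 h (log2 FC = -0.69, adjusted p = 6.18e-07, edgeR). All treated A2780cis libraries were below their controls of the same time. In treated A2780 libraries of 12 h DUSP6 stood at 220.1, 195.1 and 186.7 CPM, above every control but not past the threshold (log2 FC = 0.13, 95% interval -0.06 to 0.32, adjusted p = 0.231, edgeR), and with scaling by library size alone this became a call (0.35, adjusted p = 0.000921). Treated libraries of 12 h, at 201 ± 17.3 CPM in A2780 and 196 ± 25.8 CPM in A2780cis, overlapped. The effect of 12 h was lower in A2780cis by 0.82 (log2 difference -0.82, 95% interval -1.09 to -0.55, adjusted p = 8.45e-05, edgeR).

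At 6 h the treated A2780 libraries had 127.4, 149.8 and 154.0 CPM of DUSP6, each below every control, and the log2 FC of -0.23 missed the threshold (adjusted p = 0.0639, edgeR). The call was made with the size factors of DESeq2 (adjusted p = 0.0323), with the DESeq2 Wald test (0.0171), without lncRNA and rRNA genes (0.022), with only the compared groups (0.0425) and without treated replicate 3 (0.0476). DUSP6 is also the member whose exons overlap those of another gene: 1105 of its 3859 exonic bases are covered by the lncRNA ENSG00000274021 on the opposite strand. That gene's counts amounted to 5.75% to 15% of those of DUSP6, and since no source used here gives the strand setting of the counting, reads from the shared stretch cannot be told apart. The share was 9.60% to 13.1% in untreated and 8.82% to 15% in treated A2780cis libraries of 12 h.

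DUSP8 (ENSG00000184545.10, chr11:1554051-1572271), a phosphatase of JNK and p38, went from near absence to a low level. At 12 h the treated A2780cis libraries held 55, 84 and 66 reads (3.49, 4.82 and 4.11 CPM), against 9, 4 and 9 reads (0.433, 0.225 and 0.486 CPM) in the controls. In A2780 the treated libraries of 12 h held 16, 33 and 37 reads (1.12, 1.61 and 1.80 CPM), against 3, 0 and 3 in the controls. Treated and untreated libraries did not overlap in either line. The ratio of summed reads, scaled for library size with TMM, was 10.8 in A2780cis (exact 95% interval 6.97 to 17.7) and 13.5 in A2780 (5.94 to 37.7), counting error only. The fitted log2 FC was 3.40 in A2780cis (SE 0.33, adjusted p = 1.89e-09, edgeR) and 3.64 in A2780 (SE 0.48, adjusted p = 5.75e-07), where the controls had at most 3 reads, so that its size depends on the prior count. As DUSP8 passed the low-count filter only through treated libraries, its adjusted p-values for treatment are given as a description. At 6 h the treated A2780cis libraries held 8, 10 and 22 reads, against 3, 0 and 2 (ratio 5.56, 2.20 to 18.1, adjusted p = 0.00359, edgeR). The treated A2780 libraries of 6 h held 2, 1 and 5 reads, against 0, 0 and 1 (ratio 7.89, 1.06 to 350, adjusted p = 0.081, edgeR); without untreated replicate 3 the adjusted p was 0.0414. The effects of the 2 lines at 12 h differed by -0.24 with an interval from -1.46 to 0.98, too wide to show whether they were alike.

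DUSP10 (ENSG00000143507.17, chr1:221701424-221742089), another phosphatase of p38 and JNK, had at most 5 reads in a library and 27 reads in all. In A2780cis, 3, 2 and 3 reads after 6 h of treatment stood against 0, 1 and 1, and 2, 5 and 2 reads after 12 h stood against 3, 0 and 0. The groups of 12 h overlapped, and the ratio of summed reads was 3.49 with an exact 95% interval from 0.871 to 20. In A2780 no group had more than 2 reads in sum, and a difference was not detectable at this depth.

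**Figure D3:**
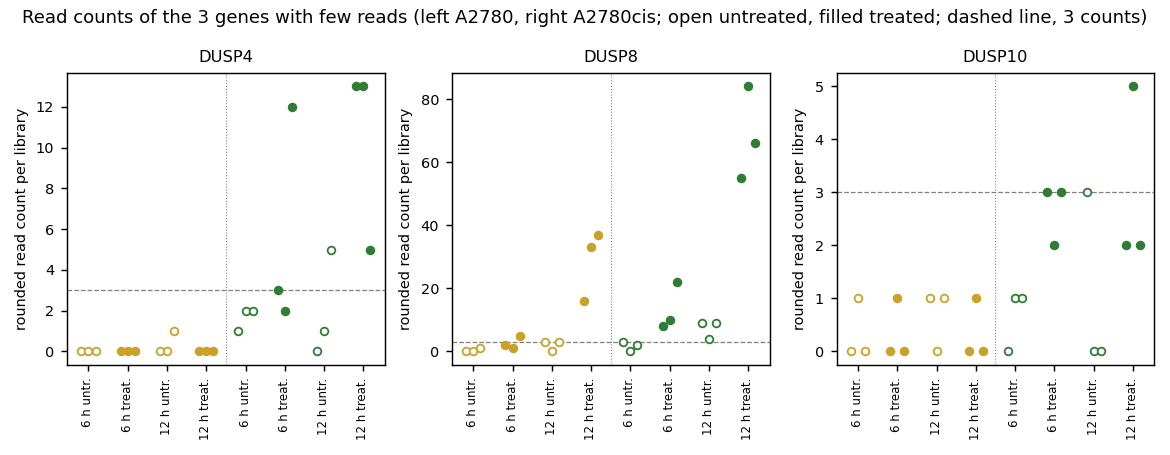
Rounded read counts per library (vertical axes) of DUSP4, DUSP8 and DUSP10, the 3 genes with few reads, by group (horizontal axis, A2780 left, A2780cis right; open untreated, filled treated). The dashed line marks 3 counts: only DUSP8 in treated libraries of 12 h (16 to 37 reads in A2780, 55 to 84 in A2780cis) stood clear of it in every library of both lines.

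DUSP16 (ENSG00000111266.8, chr12:12473282-12562863), a phosphatase with preference for JNK, fell in both lines at both times, in contrast to DUSP8, its closest relative in the catalytic loop. At 12 h the untreated A2780cis libraries had 49.3, 50.02 and 51.3 CPM and the treated ones 34.1, 35.7 and 29.6 CPM. The A2780 libraries went from 51.4, 53.2 and 59.1 CPM to 43.5, 38.9 and 41.8 CPM. None of the groups overlapped. The log2 FC was -0.60 in A2780cis (adjusted p = 7.67e-06, edgeR) and -0.40 in A2780 (adjusted p = 0.00096), and the latter was lost with scaling by library size alone (-0.18, adjusted p = 0.135). At 6 h it was -0.46 in A2780cis (adjusted p = 0.000892, edgeR) and -0.34 in A2780 (adjusted p = 0.011). The lines did not differ past the threshold in this effect (-0.20 at 12 h, 95% interval -0.48 to 0.08), nor in the untreated cells, at 54.6 ± 4.05 and 50.2 ± 1.02 CPM at 12 h.

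DUSP14 (ENSG00000276023.4, chr17:37489891-37513501), the small atypical phosphatase, rose in all 4 treatment comparisons. In A2780 at 12 h the libraries went from 29.8, 29.7 and 30.4 CPM to 72.4, 74.8 and 74.9 CPM, and the A2780cis libraries from 40.6, 38.6 and 37.5 CPM to 69.1, 62.4 and 74.9 CPM. At 6 h they went from 29.7, 35.9 and 32.9 to 65.2, 63.2 and 57.3 CPM in A2780 and from 46.5, 38.3 and 45.6 to 60.6, 60.9 and 63.5 CPM in A2780cis. The groups lay apart in every comparison, and the treated groups of the 2 lines overlapped at each time. The log2 FC at 12 h was 1.30 in A2780 (SE 0.09, adjusted p = 1.1e-11, edgeR) and 0.82 in A2780cis (SE 0.09, adjusted p = 2.32e-08). At 6 h it was 0.92 in A2780 (adjusted p = 6.39e-08, edgeR) and 0.50 in A2780cis (adjusted p = 0.000177). The effect of 12 h was smaller in A2780cis (log2 difference -0.48, 95% interval -0.75 to -0.22, adjusted p = 0.00809, edgeR), where the untreated level was higher (log2 FC between untreated lines 0.38 at 12 h, adjusted p = 0.0012, edgeR).

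SPRY2 (ENSG00000136158.11, chr13:80335976-80341126), an inhibitor of receptor tyrosine kinase signalling, was lower in A2780cis than in A2780 and fell in both. The untreated A2780 libraries of 12 h had 193.8, 204.6 and 214.7 CPM and the treated ones 163.5, 156.2 and 148.4 CPM. The A2780cis libraries went from 107.1, 109.9 and 106.4 CPM to 62.1, 60.1 and 57.0 CPM. No group overlapped its control or the other line. The log2 FC was -0.39 in A2780 (adjusted p = 7.11e-05, edgeR) and -0.85 in A2780cis (SE 0.08, adjusted p = 4.47e-10), and the effect was stronger in A2780cis (log2 difference -0.46, 95% interval -0.68 to -0.25, adjusted p = 0.00246, edgeR). At 6 h the log2 FC was -0.20 in A2780 (adjusted p = 0.0419, edgeR) and -0.27 in A2780cis (adjusted p = 0.00774). The former call was lost in 5 of 6 fits that left out 1 library (only the fit without treated replicate 2 kept it), and the latter with library size alone (adjusted p = 0.0655), with no filter (0.143) and with only the compared groups (0.0621). In A2780cis the fall deepened from 6 h to 12 h by 0.58 on the log2 scale (log2 difference -0.58, 95% interval -0.80 to -0.36, adjusted p = 0.000325, edgeR).

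SPRY4 (ENSG00000187678.8, chr5:142310427-142326455), a second inhibitor on this route, fell in A2780 and showed no call in A2780cis. The A2780 libraries of 12 h went from 173.5, 188.0 and 212.7 CPM to 148.3, 149.7 and 144.7 CPM, without overlap (log2 FC = -0.38, adjusted p = 0.00249, edgeR; with library size alone -0.15, adjusted p = 0.232). The A2780cis libraries had 169.8, 192.7 and 201.1 CPM untreated and 214.8, 209.6 and 185.7 CPM treated, with overlap (log2 FC = 0.11, 95% interval -0.09 to 0.32, adjusted p = 0.333, edgeR). The difference between these effects was 0.49 (95% interval 0.20 to 0.78, adjusted p = 0.0133, edgeR), and with library size alone 0.38 (adjusted p = 0.0717). At 6 h the A2780 log2 FC of -0.26 was at the threshold (adjusted p = 0.0498, edgeR), and no fit that left out 1 library called it. Untreated A2780cis cells fell in SPRY4 from 249 ± 41.5 CPM at 6 h, with 1 library at 296.6 CPM, to 188 ± 16.2 CPM at 12 h (log2 FC = -0.41, adjusted p = 0.00263, edgeR), and with library size alone this call was lost (-0.24, adjusted p = 0.101).

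The test of whether the lines responded differently gave 6 calls among the 8 tested genes at 12 h, against 23.7% of all genes. The effect in A2780cis was higher for DUSP1 and SPRY4 and lower for DUSP5, DUSP6, DUSP14 and SPRY2, and all 6 calls were made in each of 12 fits that left out 1 library. At 6 h none of the 8 passed in edgeR's quasi-likelihood test, against 3.07% of all genes; 2 had an unadjusted p under 0.05 (DUSP5, log2 difference -0.82, and DUSP14, -0.41), and the DESeq2 Wald test called 1, DUSP14 (-0.40, adjusted p = 0.0336). Leaving out 1 untreated A2780cis library of 6 h also gave a call, of DUSP5 without replicate 1 (adjusted p = 0.0303, edgeR) and of DUSP14 without replicate 2 (0.0453).

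The difference between the effects of 12 h and 6 h passed for 2 of the 8 genes in A2780cis (DUSP1 and SPRY2, against 24% of all genes) and for 2 in A2780 (23.7%). In A2780 these were DUSP6, whose effect went from -0.23 to 0.13 with neither past the threshold (log2 difference 0.37, adjusted p = 0.0456, edgeR), and DUSP14 (0.39, adjusted p = 0.0332). Each of them passed in only 3 of 12 fits that left out 1 library, and the number of calls then ran from 0 to 2. DUSP14 in A2780cis (0.32, adjusted p = 0.076, edgeR) passed without untreated replicate 2 of 6 h (0.0275) or treated replicate 2 of 12 h (0.0326). It also passed in 3 of 8 other settings, with library size alone (0.0492), without lncRNA and rRNA genes (0.0354) and in the DESeq2 Wald test (0.0335). DUSP6 there (-0.24, adjusted p = 0.201) passed without treated replicate 1 of 12 h (0.0282).

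Untreated cells of the 2 lines differed in 6 of the 8 tested genes at each time, against 47.9% of all genes at 6 h and 52.9% at 12 h. DUSP1, DUSP5, DUSP6 and DUSP14 were higher and SPRY2 was lower in A2780cis at both times. SPRY2 differed by -0.73 at 6 h (adjusted p = 5.35e-09, edgeR) and -0.92 at 12 h (adjusted p = 4.15e-11). SPRY4 was higher in A2780cis at 6 h (log2 FC = 0.49, adjusted p = 0.000227, edgeR) and at 12 h had a log2 FC of -0.03 with an interval from -0.23 to 0.18. DUSP1 differed by 0.98 at 6 h (adjusted p = 0.000284, edgeR) and by 0.44 at 12 h (adjusted p = 0.0387), where the call was lost without any of the 3 A2780 libraries or A2780cis replicate 3 (adjusted p up to 0.171), with no filter (0.0699) and with the DESeq2 Wald test (0.058). DUSP8 at 12 h (22 against 6 summed reads, adjusted p = 0.0291, edgeR) lost its call without A2780 replicate 2 or A2780cis replicates 1 or 3 (adjusted p up to 0.142).

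Untreated A2780 cells showed no call between 6 h and 12 h among the 8 genes in edgeR's quasi-likelihood test, against 26.9% of all genes, with 1 unadjusted p under 0.05 (DUSP1, log2 FC = 0.49) and 0 calls in the DESeq2 Wald test. DUSP1 passed without untreated replicate 2 of 6 h (adjusted p = 0.0188, edgeR) and with library size alone (0.045). In untreated A2780cis cells 2 genes passed, DUSP6 and SPRY4, both lower at 12 h, against 39.9% of all genes; DUSP5 (-0.35, adjusted p = 0.101, edgeR) passed without replicate 1 of 6 h (0.0328).

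The scaling moves several of these effects. With library size alone in place of TMM, the median log2 FC over all genes tested went from 0.02 to 0.24 for A2780 at 12 h, from 0.04 to 0.15 for A2780cis at 12 h, from -0.04 to -0.16 for the difference between the lines at 12 h, from -0.02 to 0.13 for the 12 h minus 6 h difference of the effect in A2780 and from -0.09 to 0.06 for untreated A2780cis cells over time. The share of higher genes among all those called went from 52.3% to 70.7% for A2780 at 12 h, from 47.0% to 61.4% for A2780cis at 6 h and from 41.0% to 27% for the line difference at 12 h. It went from 45.1% to 69.7% for the 12 h minus 6 h difference of the effect in A2780, from 61.7% to 71.9% for untreated A2780 and from 45.2% to 74.6% for untreated A2780cis cells over time.

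The other phosphatases and inhibitors of the family were divided as well. Of all genes tested at 12 h, 28.6% rose and 26.1% fell in A2780, and 31.0% rose and 28.9% fell in A2780cis. Of 3 further MAPK-directed phosphatases, DUSP7, which acts on ERK in the cytoplasm, fell at 12 h in A2780 (log2 FC = -0.68, adjusted p = 0.000133, edgeR) and in A2780cis (-1.24, adjusted p = 1.84e-08), and the nuclear DUSP2 rose in A2780cis (0.92, adjusted p = 6.52e-06). DUSP9, a relative of DUSP6, fell in both; in A2780 (-0.58, adjusted p = 0.0307, edgeR) its call was lost with library size alone (0.22), with the DESeq2 Wald test (0.0605) and without untreated replicates 2 or 3 or treated replicates 2 or 3 (up to 0.0979). Of 5 other Sprouty and Spred genes, 2 rose and 3 fell in each line at 12 h: SPRED3 rose (1.35 in A2780 and 1.52 in A2780cis), SPRY1 fell in A2780cis (-1.10), and SPRY3 rose in A2780 (1.39), although SPRY3 lies in a region that the X and Y chromosomes share, so its reads may be split. Of 8 tested atypical phosphatases, 5 rose and 2 fell in A2780 and 3 rose and 3 fell in A2780cis. Among these DUSP3, which acts on ERK and JNK, rose in A2780 (1.17, adjusted p = 4.86e-12, edgeR) and in A2780cis (0.70, adjusted p = 3.2e-08), DUSP22 rose in A2780 (0.52) and DUSP28 in A2780cis (0.76).

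The kinases and adaptors upstream moved in both directions, and in A2780cis most of those called at 12 h fell. Of 16 genes of the ERK cascade at 12 h, 3 rose and 6 fell in A2780 (median log2 FC -0.14) and 1 rose and 12 fell in A2780cis (median -0.46), where the median over all genes tested was 0.02 and 0.04; of all genes, 28.6% rose and 26.1% fell in A2780 and 31.0% rose and 28.9% fell in A2780cis. MAP2K1, which encodes the kinase MEK1, fell in A2780 (-0.72), and SOS1, the exchange factor of RAS, fell in A2780cis (-1.62, adjusted p = 1.15e-10, edgeR). Of 19 genes of the JNK and p38 cascades, 2 rose and 4 fell in A2780 (median -0.16) and 3 rose and 11 fell in A2780cis (median -0.31). In A2780, MAPK11, a p38 kinase, rose (1.16) and MAP2K6 fell (-0.71); in A2780cis, MAP3K5 (-1.81) and MAP3K4 (-0.99) fell. In A2780 both medians changed sign with library size alone (0.08 and 0.06), where 4 genes of the ERK cascade rose and 5 fell, and 5 of the JNK and p38 cascades rose and 2 fell. Of 12 tested transcripts that commonly rise with ERK activity, 7 rose and 1 fell in A2780 (median 0.68) and 7 rose and 2 fell in A2780cis (median 1.35). These include FOS, at 2.97 CPM untreated and 19.1 CPM treated in A2780 (log2 FC = 2.69, adjusted p = 8.01e-14, edgeR) and 1.72 and 29.0 CPM in A2780cis (4.07, adjusted p = 1.62e-16), EGR1 in A2780 (2.47, adjusted p = 2.93e-14) and FOSL1 in A2780cis (3.05, adjusted p = 1.07e-12). In A2780cis at 12 h, FOS and FOSL1 rose, DUSP6 and SPRY2 fell and SPRY4 showed no call.

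**Figure D4:**
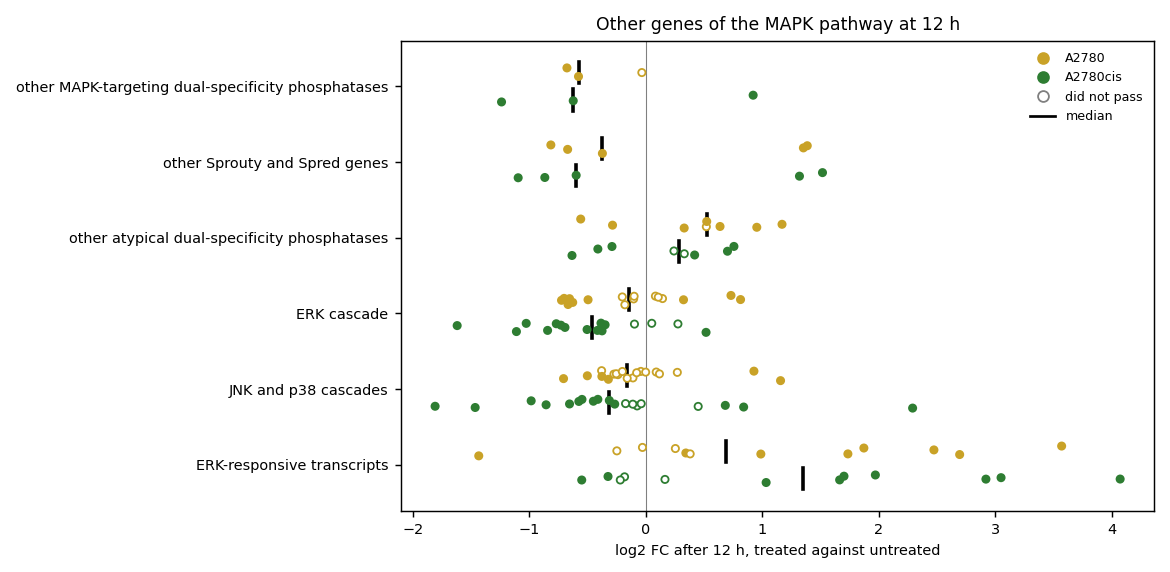
Log2 FC at 12 h (horizontal axis) of the other genes of the MAPK pathway, grouped by list (vertical axis), in A2780 (ochre, upper row of each list) and A2780cis (green, lower row). Points are genes, filled where the threshold was passed, and black bars are the medians: the ERK-responsive transcripts lay to the right (medians 0.68 and 1.35) and the ERK cascade in A2780cis to the left (median -0.46).

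Over the 8 group means of log2 CPM, DUSP1 and DUSP8 had the most similar patterns among the members (Pearson r = 0.931), and DUSP6 was most like SPRY4 (r = 0.779). DUSP8 held few reads in several groups (1 in all in untreated A2780 libraries of 6 h), so its log2 CPM there depends on the prior count. DUSP1 and SPRY2 ran against each other (r = -0.884), as did DUSP14 and DUSP16 (r = -0.872). Among 11553 genes with a symbol and a mean log2 CPM of at least 2 (11554 for DUSP8), the pattern most like that of SPRY2 was that of TUBGCP3 (r = 0.997), of DUSP1 the antisense gene CD27-AS1 (0.988), of DUSP16 ATXN2 (0.988), of DUSP8 PCYOX1L (0.985), of DUSP14 NOPCHAP1 (0.983) and of DUSP6 NT5DC3 (0.982). MTO1 was most like DUSP5 (0.968) and SLC17A5 most like SPRY4 (0.962). For DUSP5 and SPRY4, 16 and 36 genes lay over 0.9, against 150 for DUSP1, 274 for DUSP8 and 538 for SPRY2. These are correlations over 8 points that share 2 lines, 2 times and 1 treatment, and are given as a description.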

How the data were processed

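Total RNA (TruSeq Stranded Total RNA kit) was sequenced by the authors, who trimmed the reads, aligned them with STAR (2.5.2b in the submitters' processing notes) to GRCh38.p7 and counted them on exons with featureCounts. The deposited values are estimated counts per gene, not normalized: reads with several alignments added fractions, so some entries are not whole. The strand setting is not given in the sources used here; single reads are named in the labels and paired-end reads in the paper.

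After rounding, the counts were fitted with edgeR 4.0.16 (R 4.3.3): filterByExpr (minimum count 10, minimum total 15), TMM, 1 coefficient per group over 24 libraries (16 residual degrees of freedom). Adjusted p-values are from edgeR's two-sided quasi-likelihood test with Benjamini-Hochberg adjustment over 20240 genes and a threshold of 0.05, unless DESeq2 1.42.0 is named. Library totals of 11077368 to 21901406 limit the precision of genes with few reads. Intervals of summed reads are exact binomial ones at 95%, scaled by library size with TMM, and cover counting error only. Genes were matched to GENCODE release 44 (56948 of 63299 identifiers), and promoter windows come from RefSeq on GRCh38.p14. Figures were drawn with matplotlib 3.10.9.

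The 10 genes, the lists and the tests were chosen with earlier results of these data known. Named besides them are, per list and line, up to 2 genes with the smallest p at 12 h (1 such gene is not reported here), and per tested member the gene with the most similar group means. Alternatives were size factors as in DESeq2, library size alone, no low-count filter, unrounded counts, the replicate number as a block, the compared groups alone, no lncRNA and rRNA genes, the DESeq2 Wald test and each library left out in turn. The procedure was tested on simulated data for the A2780 treatment comparison of 12 h alone. Known changes were set only in genes above the levels of DUSP1, DUSP5 and DUSP8 in untreated A2780 cells of 12 h. Genes that low were therefore not covered, and neither were differences between lines or times. In the real data, no 2 libraries of a group agreed within sampling noise.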

Additional observations from a re-analysis of the deposited data

Results flagged for a closer look

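For 6 genes the effect of 12 h of treatment differed between the cell lines in the test of the difference itself (quasi-likelihood test of edgeR, adjusted by Benjamini and Hochberg). Of all genes tested, 23.7% passed this test. In log2 units of A2780cis minus A2780, the differences were 0.89 for DUSP1, 0.49 for SPRY4, -1.01 for DUSP5, -0.82 for DUSP6, -0.48 for DUSP14 and -0.46 for SPRY2. For DUSP6 the fitted effects had opposite signs, -0.69 in A2780cis and 0.13 in A2780, and the latter did not pass the threshold. The untreated levels of 5 of these genes differed between the lines at 12 h too (SPRY4 did not pass), against 52.9% of all genes. Whether the untreated levels bear on the difference was not tested.

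The effect at 12 h differed from that at 6 h for DUSP1 (1.04) and SPRY2 (-0.58) in A2780cis, and for DUSP6 (0.37) and DUSP14 (0.39) in A2780. Those of A2780 were lost in 9 of 12 fits that left out 1 library each.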

How the results depend on the processing

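Of the values of single genes, 907 of 951 under other settings and 842 of 912 with 1 library left out kept their direction and their side of the threshold. The number of the 8 genes called changed by more than 1.5 times in these cases: A2780 at 6 h (5) to 3 with library size alone or no filter, and to 3 to 4 with 1 library left out; the line difference at 6 h (0) to 1 with the DESeq2 Wald test, and 0 to 1 with 1 library left out; the 12 h minus 6 h difference of the effect in A2780 (2) to 0 with no filter, and 0 to 2 with 1 library left out; untreated A2780 over time (0) to 1 with library size alone, and 0 to 1 with 1 library left out; and untreated A2780cis over time (2) to 1 with library size alone. Deviations of same-numbered libraries correlated with r from -0.655 to 0.644, and in 1 of 20 pairs of groups all were over 0.1. With 3 libraries per group, such values cannot decide whether the replicate numbers pair the samples. With the number as a replicate block the counts were 5 and 7 for A2780 and 6 and 6 for A2780cis at 6 h and 12 h, and 6 for the line difference at 12 h.

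Log2 values changed sign only for genes short of the threshold. With library size alone SPRY4 in A2780cis at 6 h became 0.0366, DUSP5 in A2780cis at 12 h 0.0919, the 12 h minus 6 h difference of the effect in A2780 0.0929 for DUSP16 and 0.0424 for SPRY4, DUSP16 between untreated lines at 6 h -0.0149, and, in untreated A2780cis over time, DUSP1 0.12, DUSP14 0.0110, DUSP16 0.1125 and SPRY2 0.0634. DUSP5 in A2780cis at 12 h became 0.0481 without lncRNA and rRNA genes. With only the compared groups DUSP16 between untreated lines at 6 h became -0.0071, and in untreated A2780cis over time DUSP1 became 0.0312 and DUSP16 0.0243; with no filter DUSP1 there became 0.0035. With 1 library left out the ranges were -0.0171 to 0.52 for DUSP1 in A2780 at 6 h, -0.0906 to 0.14 and -0.21 to 0.0623 for DUSP5 in A2780cis at 6 h and 12 h, -0.14 to 0.0847 for SPRY4 in A2780cis at 6 h, -2.43 to 0.44 and -0.72 to 0.31 for the line difference of DUSP8 at 6 h and 12 h, -0.0061 to 0.28 for DUSP5 and -1.19 to 1.68 for DUSP8 in the 12 h minus 6 h difference of the effect in A2780, -0.31 to 0.0707 for DUSP5 in that of A2780cis, -0.0815 to 0.0564 for SPRY4 between untreated lines at 12 h and -0.16 to 0.0198 for DUSP1 in untreated A2780cis over time. The cause was not tested. Depth limits DUSP4, DUSP8 and DUSP10, whose untreated groups held few reads.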
